A study of Mus musculus with 24 samples.

Results

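Late maturation of osteoblasts (OBs) heterozygous (Het) for a procollagen mutation was followed by bulk RNASeq, with 4 libraries collected at day 21 set against 4 collected at day 14. These 8 libraries were chosen by their labels (genotype Het G610C, Day 14 or Day 21, replicates 1 to 4) out of 24 in the series. The mutation replaces a glycine by a cysteine in the triple helical part of the α2 chain of type I procollagen, which *Col1a2* encodes, and was kept on the C57BL/6J background. Being a change of a single codon, it is not visible in *Col1a2* counts, so the genotype label could not be checked in them. Primary OBs had been released from parietal bones of pups 4 to 5 days old, pooled over several pups of 1 genotype, and differentiated in medium with serum and ascorbic acid 2-phosphate, with days counted from seeding. Wild type (WT) cultures handled in the same way, 4 per day, served for comparison and share no library with the Het ones. Every culture, WT or Het, received the osteogenic medium. Wells of a preparation share a pool of animals, so p-values measure the spread between wells and preparations rather than between animals.

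A confluent OB layer can deposit and mineralize a collagen matrix, and some OBs can become osteocytes. Type I procollagen is folded in the endoplasmic reticulum (ER), where prolyl hydroxylases, peptidyl-prolyl isomerases and the chaperone HSP47 act on its chains before secretion. Misfolded chains can engage the unfolded protein response of the ER (ER-UPR) or the integrated stress response (ISR), a program of transcription factors such as ATF4, CHOP and ATF5. Cultures made from bone also carry cells that do not make bone matrix, among them macrophages, chondrocytes and osteoclast precursors, and genes that mark them were followed as lists beside those of OBs.

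Each library held 17140202 to 56219341 counts, and replicate 1 was the shallowest on both days (17140202 counts at day 14 and 23618848 at day 21). Replicate 1 also stood apart in its expression values. Over 18437 genes the root mean square log2 difference between libraries of one day was 0.31 to 0.38 for the 6 pairs that include replicate 1 and 0.08 to 0.25 for the 6 pairs among replicates 2 to 4. According to the methods the cells came from 2 experiments, with other litters, another plating density and another oxygen level in the second. The labels do not assign replicates to these experiments, so replicate 1 was treated as a candidate preparation. Counts of called genes over all genes, and those of some lists, are also given without replicate 1. Levels are given as relative quantity (RQ), for which the counts of each library were divided by the geometric mean of its 4 housekeeping counts (*Actb*, *Actg1*, *Sdha* and *Mrfap1*). None of these 4 genes was called, and their log2 fold changes were −0.06 to 0.07. Because the same genes set the scale, these values are no check of it. RQ does not correct for transcript length and was compared only within a gene or a list. A gene was called changed at an adjusted p under 0.05 in edgeR's quasi-likelihood test, fitted to the counts of the 8 libraries with that geometric mean as library scale and adjusted over all genes tested (Benjamini-Hochberg).

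In Het OB cultures 57 genes rose from day 14 to day 21 (0.309% of 18437 tested) and 12 fell (0.0651%). Among genes with at least 50 counts on average, the 5 largest rises were those of *Lyz1*, *Wfdc17*, *Marco*, *Clec4n* and *Fcgr2b*, which encode receptors and secreted proteins of macrophages. *Gm29291* and *Pianp*, with fewer counts, rose by 2.12 and 1.92 on the log2 scale. The largest falls were those of *Igf2os* and of *H19* with the entries inside it, in an imprinted growth domain, and the collagen prolyl hydroxylase *P3h2*, the enolase *Eno3* and the Wnt effector *Tcf7* fell as well. No gene of the type I procollagen chains or of the bone matrix, ISR or ER-UPR lists was called by edgeR. All 69 changed genes had RQs that did not overlap between the days, as had 9.39% (higher) and 2.09% (lower) of all genes tested, and 24 changed by more than 2-fold.

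The number of called genes depended on the libraries and on the scale. At an unadjusted p under 0.05 there were 2905 genes (12.9% of those tested with higher and 2.87% with lower values). With other scales edgeR called 10 genes (total count), 25 (TMM) or 235 (housekeeping genes without *Sdha*). Without replicate 1, 897 genes were called higher (4.83% of 18579) and 225 lower (1.21%), and all 69 genes were among them in the same direction. Leaving out replicate 2, 3 or 4 on both days left 0 genes called by edgeR, with 1617 to 2165 at an unadjusted p under 0.05, and leaving out a single library of these replicates left 0 to 3. DESeq2's Wald test on the same 8 libraries called 1203 genes (5.52% higher and 1.01% lower), which included all 69.

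Macrophage genes made up the most coherent group of the comparison. Of 42 macrophage list genes tested, 5 rose (*Lyz1*, *Marco*, *Gpnmb*, *Folr2* and *Mrc1*, 11.9% against 0.309% of all genes) and none fell by edgeR, all 42 had positive log2 fold changes, and their median was 0.98 against 0.08 over all genes. The RQs of 25 members were higher at day 21 without overlap (59.5%, against 9.39% of all genes), and 36 had an unadjusted p under 0.05 (85.7%, against 12.9%). Without replicate 1, 34 of 43 were called higher (79.1%, against 4.83%), with a median of 0.89, and DESeq2 called 28 of 42 in all 8 libraries (66.7%, against 5.52%). In bulk RNA a larger share of macrophages and more RNA per macrophage cannot be told apart.

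Summed over the 44 list genes, macrophage RQ was 5.65, 12, 11 and 11.1 in replicates 1 to 4 at day 14 and 14.0, 19, 18.6 and 28.7 at day 21. The sum was lowest in replicate 1 and did not overlap between the days, with a ratio of means of 2.02. *Lyz2*, which encodes the lysozyme of myeloid cells, supplied 31.7% to 43.8% of it. Without *Lyz2* the sum ranged between 3.86 and 7.18 at day 14 and between 9.03 and 16.1 at day 21.

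**Figure D1:**
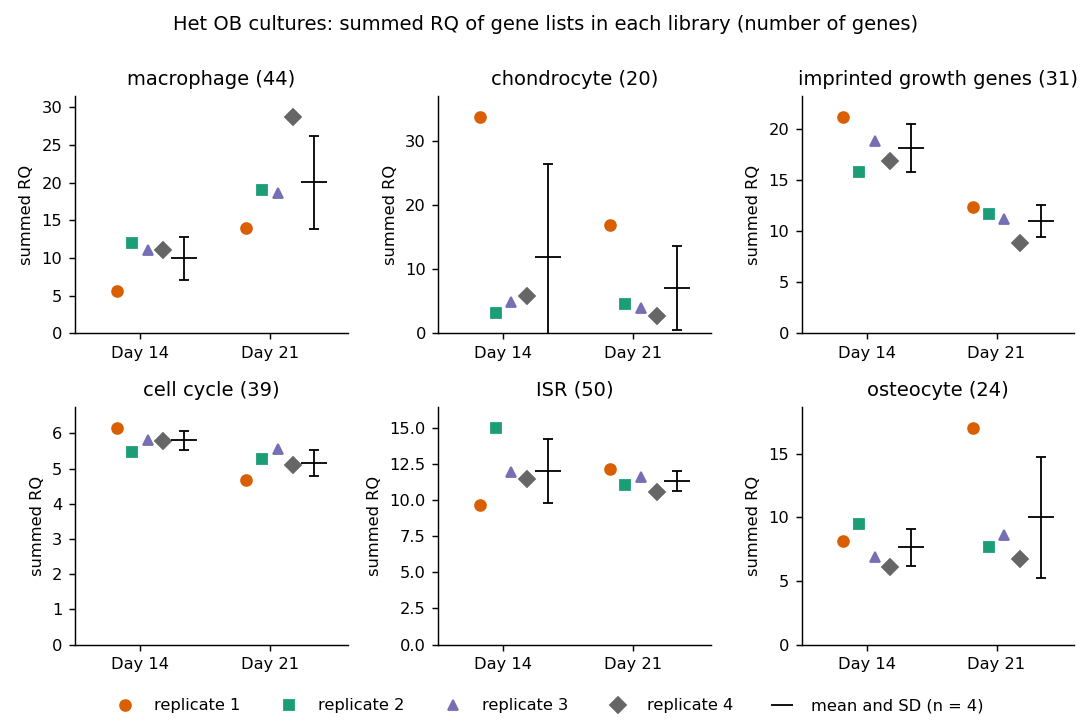
Summed RQ (no unit) of 6 gene lists in each Het library at days 14 and 21, with the number of genes summed in parentheses. Colored symbols are the 4 replicates, and bars are the mean and SD (the lower end of the chondrocyte SD at day 14 lies below 0 and is not drawn). The macrophage sum lay between 5.65 and 12 at day 14 and between 14 and 28.7 at day 21, the imprinted gene sum fell without overlap, and replicate 1 had the highest chondrocyte sum on both days.

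The largest rise with at least 50 counts on average was that of *Lyz1*, a second lysozyme gene (ENSMUSG00000069515.6, GRCm38 chr10:117287797-117292868). Its RQ was 0.0263, 0.0315, 0.0382 and 0.0554 in replicates 1 to 4 at day 14 and 0.143, 0.12, 0.162 and 0.243 at day 21. The lowest day 21 value was above every day 14 value, and the log2 fold change was 2.13 ± 0.28 (SE, edgeR's adjusted p = 0.0244). *Lyz1* lies next to *Lyz2* and resembles it closely, and how the counting divided reads between them is not given in the sources used here. *Lyz2* RQ was 1.79, 4.80, 4.37 and 4.46 at day 14 and 4.98, 7.22, 7.40 and 12.5 at day 21. It was higher at day 21 without overlap but was not called by edgeR (log2 fold change 1.06 ± 0.36, adjusted p = 0.194, and 0.0436 without replicate 1), while DESeq2 called it (adjusted p = 0.0294).

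Of the scavenger receptors, *Marco*, which binds bacteria and modified lipoproteins, had an RQ of 0.0329, 0.0258, 0.0319 and 0.0401 at day 14 and 0.0780, 0.150, 0.0977 and 0.12 at day 21. It was higher at day 21 without overlap, by 1.77 ± 0.21 on the log2 scale (adjusted p = 0.0202). *Mrc1*, the mannose receptor CD206, rose from 0.300, 0.450, 0.475 and 0.460 to 0.8, 0.825, 0.816 and 1.13 (log2 fold change 1.09 ± 0.18, adjusted p = 0.0488). Replicate 1 had the lowest *Mrc1* level on both days. *Folr2*, the folate receptor of resident macrophages, rose from 0.0265, 0.0507, 0.0483 and 0.0401 to 0.0943, 0.0934, 0.0943 and 0.128 (1.30 ± 0.20, adjusted p = 0.0447). The antisense entry *Gm10602* overlaps *Folr2* and was called with it (log2 fold change 1.03), and reads of these opposite genes could be told apart only if the counting used strand, which is not given in the sources used here.

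Receptors for fungal sugars, antibodies and nucleotides rose as well. *Clec4n*, the lectin receptor Dectin-2, had an RQ of 0.0167, 0.0176, 0.0267 and 0.0284 at day 14 and 0.0639, 0.0618, 0.0670 and 0.0908 at day 21 (log2 fold change 1.65 ± 0.20, adjusted p = 0.0229). *Fcgr2b*, the inhibitory receptor for immunoglobulin G, had 0.0373, 0.0731, 0.0778 and 0.0723 at day 14 and 0.206, 0.162, 0.160 and 0.251 at day 21 (1.57 ± 0.24, adjusted p = 0.0447). The day 14 value of replicate 1 lay well below the other 3, and without replicate 1 the change of *Fcgr2b* was 1.36. *P2ry13*, a receptor for ADP, rose by 1.25 ± 0.20 (adjusted p = 0.0461), and *Wfdc17*, a secreted protein of activated macrophages, by 1.86 ± 0.29 (adjusted p = 0.0448).

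**Figure D2:**
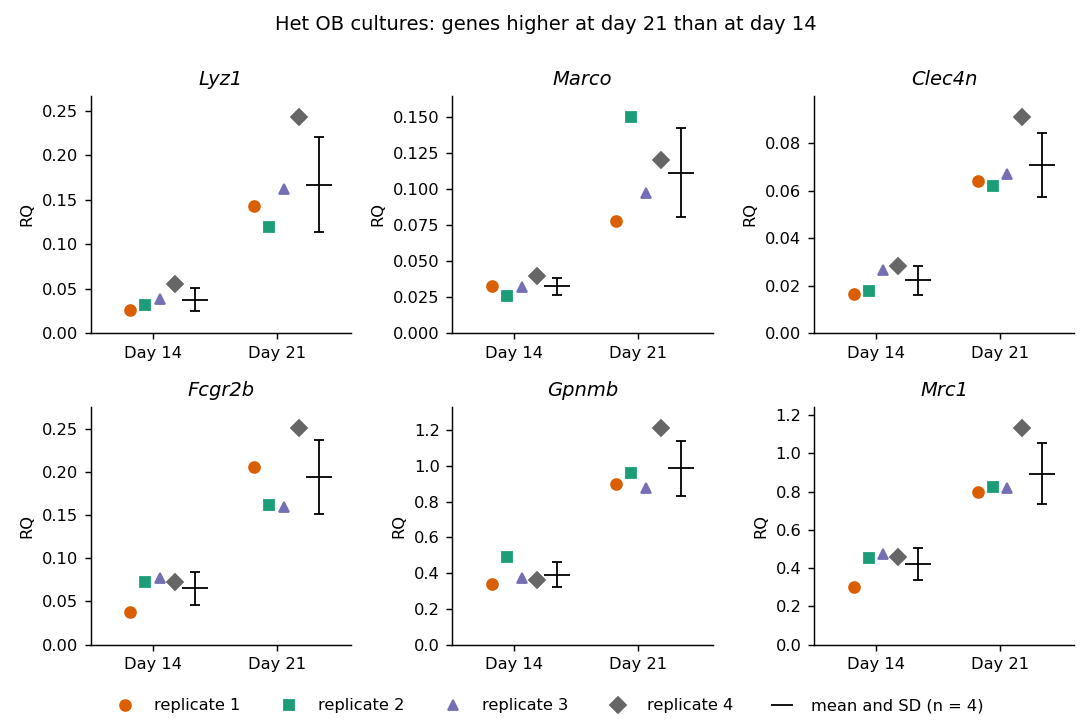
RQ (no unit, axes start at 0) of 6 genes called higher at day 21 in each Het library, with colored symbols for the replicates and bars for the mean and SD of 4. In each panel every day 21 symbol lies above every day 14 symbol, for example 0.12 to 0.243 against 0.0263 to 0.0554 for *Lyz1*.

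*Gpnmb*, a membrane glycoprotein of macrophages that OBs and osteoclasts also make, had an RQ of 0.338, 0.492, 0.373 and 0.363 at day 14 and 0.897, 0.963, 0.876 and 1.21 at day 21. Its lowest day 21 value was well above its highest day 14 value (log2 fold change 1.33 ± 0.15, adjusted p = 0.0202). *Selenop*, the secreted carrier of selenium, rose from 0.296, 0.317, 0.503 and 0.431 to 0.962, 0.811, 0.834 and 1.22 (1.31 ± 0.20, adjusted p = 0.0449). *Cbx7*, a chromobox protein of the Polycomb complex, was low on both days and separated the days cleanly, at 0.00465 to 0.00675 and 0.0122 to 0.0136 (1.20 ± 0.15, adjusted p = 0.0235). The other named rises were *9930111J21Rik1* (1.37 ± 0.16) and *Gm15635* (1.36 ± 0.22), an entry that lies opposite the transporter gene *Slco2b1*. *9930111J21Rik1* overlaps *Gm12185* and *Psme2b* on the same strand, so its counts are uncertain.

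Defining markers of macrophages had higher values at day 21 with more spread. *Adgre1*, which encodes F4/80, had an RQ of 0.178, 0.317, 0.332 and 0.310 at day 14 and 0.417, 0.565, 0.546 and 0.734 at day 21 (log2 fold change 0.99 ± 0.23, adjusted p = 0.0840). *Cd68*, a lysosomal glycoprotein, had 0.140, 0.273, 0.221 and 0.216 and then 0.311, 0.383, 0.358 and 0.493 (0.86 ± 0.21, adjusted p = 0.0931). *Csf1r*, the receptor through which CSF1 maintains macrophages, had 0.296, 0.507, 0.468 and 0.486 and then 0.492, 0.824, 0.726 and 1.01, with overlap between the days (0.80 ± 0.24, adjusted p = 0.148). By edgeR these 3 markers were not called in all 8 libraries and were called without replicate 1, with adjusted p of 0.0109, 0.0259 and 0.0178 and log2 fold changes of 0.94, 0.80 and 0.81. DESeq2 called all 3 in the 8 libraries (adjusted p = 9.36e-04, 0.0028 and 0.0189). *Csf1*, the ligand, ranged between 0.376 and 0.481 at day 14 and between 0.491 and 0.619 at day 21. It was not called by edgeR (log2 fold change 0.42, adjusted p = 0.130), while DESeq2 called it (adjusted p = 0.0146).

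Promoters of the genes that rose were searched for GAGGAAG, a string that contains the core bound by PU.1, the myeloid factor that *Spi1* encodes. In RefSeq promoters (GRCm38.p6, 250 bases before to 50 after a start site) it occurred on either strand in 14 of the 40 risen genes with a promoter in the table (35%) and in 15.4% of all 27025 genes there. A match describes the letters only. The 250 bases before the start are shown 5′ to 3′ on the gene's strand for 3 macrophage genes picked from the 14 with the string, which is in capitals as itself or its reverse complement. The 14 also include *Mrc1* and *Selenop* and genes not typical of macrophages such as *Cds2*, *Phyhd1* and *Prune2*, but not *Lyz1*, *Clec4n*, *Fcgr2b*, *Folr2* or *Gpnmb*.
Marco (chr1:120505025-120505274, minus strand): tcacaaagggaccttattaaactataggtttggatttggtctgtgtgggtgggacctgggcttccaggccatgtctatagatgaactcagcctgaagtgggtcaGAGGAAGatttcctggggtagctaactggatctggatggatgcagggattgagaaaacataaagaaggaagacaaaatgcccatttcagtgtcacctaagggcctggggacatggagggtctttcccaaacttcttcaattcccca
P2ry13 (chr3:59210883-59211132, minus strand): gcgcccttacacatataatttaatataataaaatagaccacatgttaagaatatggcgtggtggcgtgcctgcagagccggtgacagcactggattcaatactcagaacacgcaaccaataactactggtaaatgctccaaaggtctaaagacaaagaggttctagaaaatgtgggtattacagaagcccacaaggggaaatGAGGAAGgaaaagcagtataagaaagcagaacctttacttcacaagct
Wfdc17 (chr11:83703806-83704055, plus strand): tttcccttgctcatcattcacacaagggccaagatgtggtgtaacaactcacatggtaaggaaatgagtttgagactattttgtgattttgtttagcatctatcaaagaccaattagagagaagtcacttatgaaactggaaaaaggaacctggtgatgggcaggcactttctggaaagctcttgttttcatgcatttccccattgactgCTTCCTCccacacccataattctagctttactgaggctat
*Marco* and *P2ry13* carry the string on the gene's own strand, and *Wfdc17* on the opposite one. The longer strings GAGGAAGT, AGAGGAAGT and GAGGAAGTG, which overlap it, occurred in 3, 2 and 1 of the 40 genes and in 3.69%, 1.18% and 1.84% of all genes. The E-box CACGTG, the core of sites for lysosomal regulators, occurred in 4 of the 40 (10%) and in 8.09% of all genes, and TCACGTGA in 0 and 1.12%. *Spi1* itself ranged between 0.0206 and 0.0474 at day 14 and between 0.0491 and 0.1 at day 21, and was not called (log2 fold change 0.92, adjusted p = 0.156).

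Most of the called genes were on no list. *Smpdl3a*, a phosphodiesterase of the acid sphingomyelinase family, rose by 0.72 ± 0.11 and *Pla2g15*, the lysosomal phospholipase A2, by 0.69 ± 0.08 on the log2 scale. *Mertk*, a receptor for apoptotic cells, rose by 0.57 ± 0.09, and *Hfe*, the hemochromatosis protein of iron uptake, by 0.45 ± 0.07. These 4 were picked after their values were seen and are on no list, as are 60 of the 69 called genes. *Apoe*, the carrier of lipids that macrophages and adipocytes make, had an RQ of 0.405, 0.697, 0.695 and 0.756 at day 14 and 1.26, 1.72, 1.61 and 3.55 at day 21. Its log2 fold change of 1.67 missed the threshold in all 8 libraries (adjusted p = 0.0634) and passed it without replicate 1 (adjusted p = 0.0237). The macrophage sum was higher at day 21 in the same libraries, and its part in the changes of genes outside the macrophage list was not tested.

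*H19*, an imprinted RNA without a protein that is abundant in fetal tissues, had the largest fall after *Igf2os* (ENSMUSG00000000031.16, chr7:142575529-142578143). Its RQ was 7.52, 6.25, 6.23 and 5.66 at day 14 and 3.06, 2.30, 2.19 and 1.89 at day 21. The ratio of means was 0.368 and the log2 fold change −1.44 ± 0.17 (adjusted p = 0.0202), with replicate 1 highest and replicate 4 lowest on both days. Counts assigned to *Mir675* (log2 fold change −1.33), which lies inside *H19* on the same strand, and to *Gm27483* (−1.37) and *Gm27786* (−1.39), which lie inside it on the opposite strand, fell with it. These 4 calls describe 1 locus, and the entries opposite *H19* cannot be told apart from it without strand. The microRNA that this locus releases is shown because the polyadenylated counts at *Mir675* are those of the *H19* transcript and not of the mature arms (RefSeq, seed bases 2 to 8 in capitals).
mmu-miR-675-5p (chr7:142577112-142577133, minus strand): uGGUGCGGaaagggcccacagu
mmu-miR-675-3p (chr7:142577078-142577099, minus strand): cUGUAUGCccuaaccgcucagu
The arms have different seeds, and their abundance was not measured in these libraries.

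*Igf2*, the fetal growth factor of the same imprinted domain, had an RQ of 3.81, 2.16, 2.29 and 1.83 at day 14 and 0.884, 1.15, 0.842 and 0.437 at day 21. It was lower without overlap (ratio of means 0.329) and missed the threshold in edgeR (log2 fold change −1.61 ± 0.32, adjusted p = 0.0618), while it passed without replicate 1 (adjusted p = 0.0437) and in DESeq2 (adjusted p = 2.24e-05). *Igf2os*, the antisense transcript that overlaps *Igf2* (chr7:142659693-142670356), fell from 0.0195, 0.0151, 0.0107 and 0.00824 to 0.00386, 0.00374, 0.00226 and 0.00155 (−2.24 ± 0.36, adjusted p = 0.0491). Its counts were far below those of *Igf2* and cannot be told apart from them without strand. Of 28 imprinted growth genes tested, edgeR called 2 lower in all 8 libraries (*H19* and *Igf2os*, 7.14% against 0.0651% of all genes) and DESeq2 4 (also *Igf2* and *Cdkn1c*, 14.3% against 1.01%), 7 members had lower values at an unadjusted p under 0.05 (25%, against 2.87%), and the list median was −0.18 (−0.21 without replicate 1). The summed RQ of the list was 21.2, 15.8, 18.9 and 16.9 at day 14 and 12.4, 11.7, 11.2 and 8.83 at day 21, without overlap. The mean of this sum went from 18.2 to 11, while mean *H19* RQ went from 6.41 to 2.36, so *H19* supplied much of the fall. *Igf2*, of the same domain, was lower as well. Both edgeR calls, *H19* and *Igf2os*, also lie in this domain, and the sum without the domain was not tested.

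**Figure D3:**
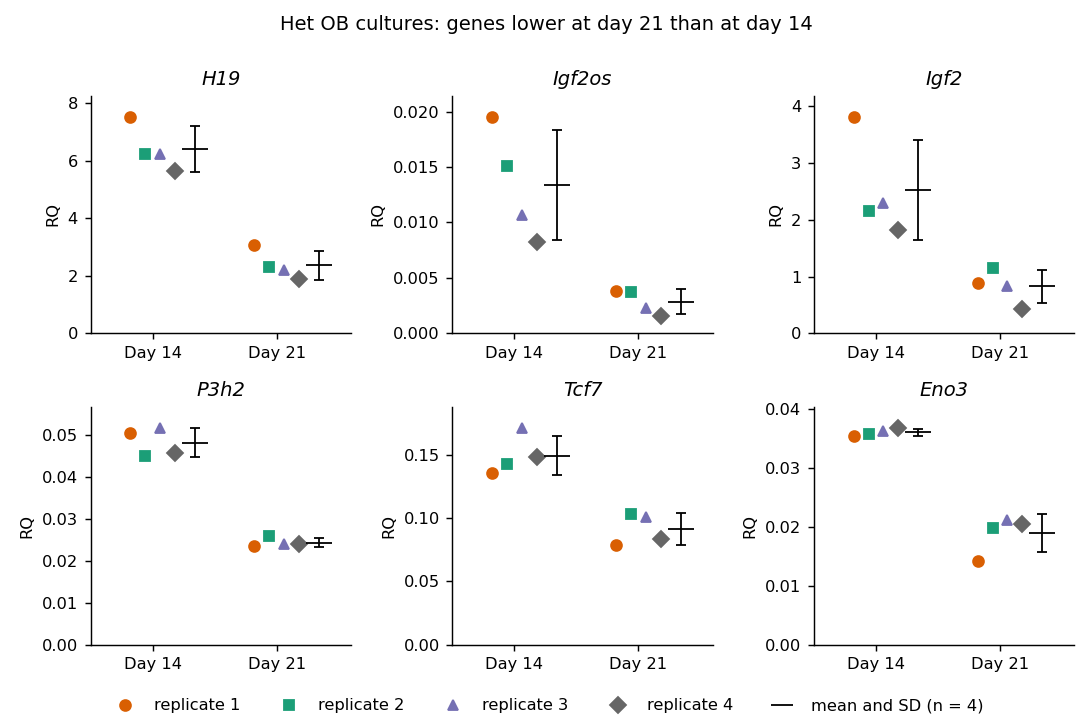
RQ (no unit, axes start at 0) of 6 genes with lower values at day 21 in each Het library, with colored symbols for the replicates and bars for the mean and SD of 4. The days do not overlap in any panel, and *Igf2* (edgeR's adjusted p = 0.0618) is the gene among them that edgeR did not call.

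Of the genes that act on type I procollagen, edgeR called *P3h2* lower and no other. *P3h2* encodes prolyl 3-hydroxylase 2, best known for its action on basement membrane collagen (chr16:25959288-26105784). Its RQ was 0.0506, 0.0449, 0.0516 and 0.0457 at day 14 and 0.0236, 0.0258, 0.0240 and 0.0240 at day 21 (log2 fold change −0.98 ± 0.08, adjusted p = 0.0145). *Gm4524*, which overlaps the end of *P3h2* on the opposite strand, fell by a similar amount (−0.94 ± 0.13, adjusted p = 0.0336). Where they overlap, reads of these opposite genes cannot be told apart without strand.

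The genes of the type I procollagen chains were not called. *Col1a1* RQ was 82.7, 116, 103 and 97.7 at day 14 and 120, 132, 135 and 103 at day 21 (log2 fold change 0.29 ± 0.15, adjusted p = 0.402). *Col1a2*, the mutated gene, had 74.1, 106, 95.5 and 88.4 and then 135, 115, 119 and 88.4 (0.33 ± 0.17, adjusted p = 0.408). Both had their lowest day 14 level in replicate 1, and without it the log2 fold changes were 0.23 and 0.15. *Serpinh1*, the collagen chaperone HSP47, had 7.68, 10.3, 9.09 and 8.87 and then 9.26, 7.59, 7.57 and 6.79 (−0.20 ± 0.14, adjusted p = 0.542). *Fkbp10*, the isomerase FKBP65, and *P3h1*, the prolyl 3-hydroxylase of type I collagen, were lower without overlap at adjusted p of 0.185 and 0.191 (log2 fold changes −0.33 and −0.35). Of the 40 genes in this list, edgeR called 1 lower (2.5%, against 0.0651% of all genes) and none higher, and 9 had an unadjusted p under 0.05, 7 of them with lower values (17.5%, against 2.87% of all genes; median −0.02). DESeq2 called *P3h2*, *Fkbp10* and *P3h1* lower (7.5%, against 1.01%) and *Pcolce2* and *Tmem38b* higher (5%, against 5.52%). Without replicate 1, *P3h2*, *P3h4* and *Sec23a* were called lower and *Pcolce2* and *Tgm2* higher (7.5% against 1.21% of all genes, and 5% against 4.83%).

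Regulators and metabolic genes were also among the 12 falls. *Tcf7*, which encodes the Wnt-responsive factor TCF1, had an RQ of 0.136, 0.143, 0.171 and 0.148 at day 14 and 0.0784, 0.103, 0.101 and 0.0834 at day 21 (log2 fold change −0.71 ± 0.12, adjusted p = 0.0491). *Eno3*, the enolase typical of muscle, had 0.0354, 0.0357, 0.0363 and 0.0367 and then 0.0142, 0.0198, 0.0212 and 0.0204 (−0.92 ± 0.13, adjusted p = 0.0322). The *Eno3* values were nearly equal at day 14, and replicate 1 was the lowest at day 21. *Tmem97*, the sigma-2 receptor of the ER, fell by 0.52 on the log2 scale, *Srm*, spermidine synthase, fell by 0.42, and *Cdk2ap1*, a partner of the cell cycle kinase CDK2, fell by 0.41.

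**Figure D4:**
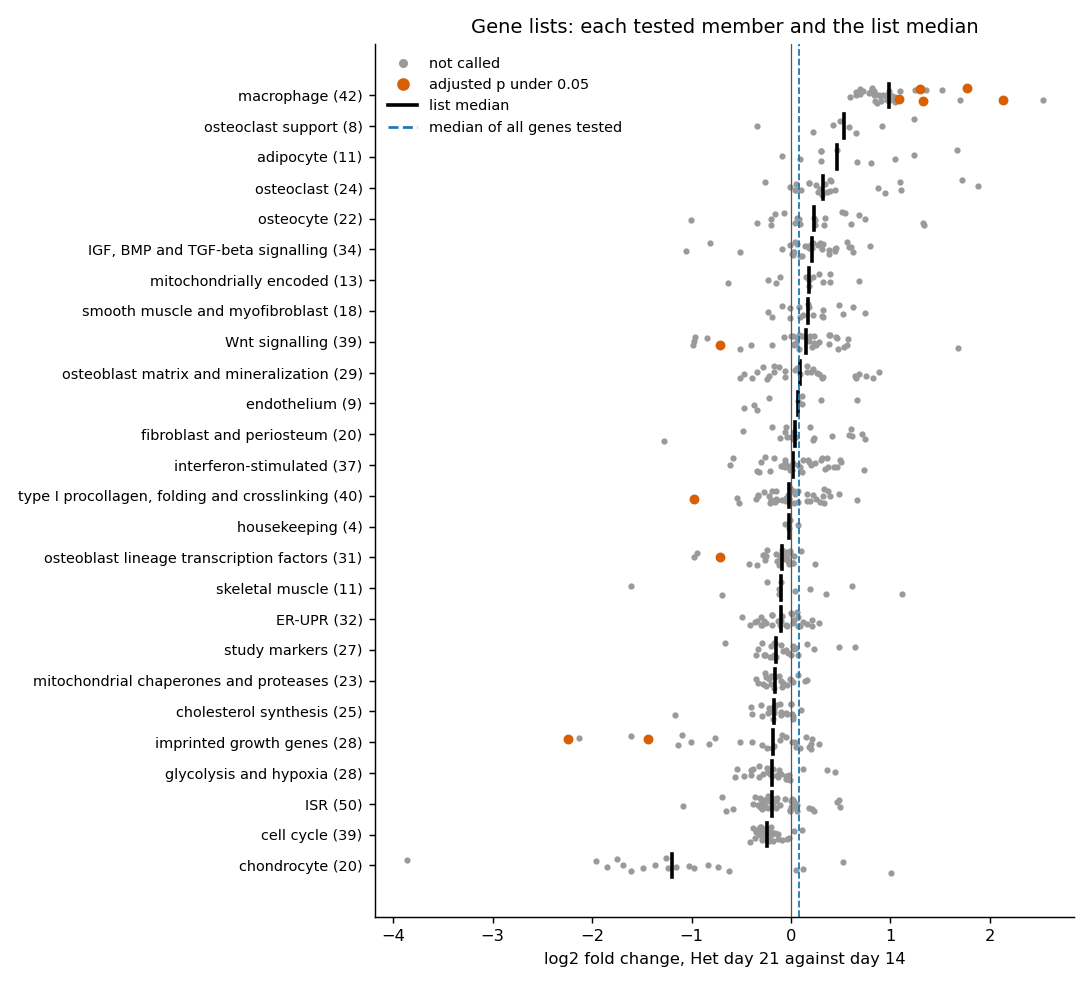
Log2 fold change (x axis) of every tested member of 26 gene lists (y axis, number tested in parentheses) in Het, day 21 against day 14. Orange points passed an adjusted p under 0.05, black bars are list medians and the dashed line is the median of all genes (0.08). The macrophage list lies to the right of the others, with a median of 0.98, and the chondrocyte list, with no call, is centred at −1.20.

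Bone matrix genes were not called by edgeR in either direction in all 8 libraries. *Bglap*, which encodes osteocalcin, had an RQ of 0.0629, 0.424, 0.0899 and 0.0937 at day 14 and 0.385, 0.196, 0.280 and 0.185 at day 21. Replicate 2 was the highest at day 14, above every day 21 value, while the other 3 day 14 values lay below every day 21 value (log2 fold change 0.64 ± 0.58, adjusted p = 0.666). *Ibsp*, bone sialoprotein, had 10.1, 8.18, 7.47 and 7.15 and then 25.9, 10.3, 11 and 8.27, and *Spp1*, osteopontin, had 4.24, 6.49, 2.10 and 2.13 and then 12.6, 3.00, 3.9 and 4.56. In both, the day 21 level of replicate 1 was more than 2-fold that of the other 3 libraries of that day. Of 29 matrix and mineralization genes, 0 were called by edgeR, and the median was 0.09 (−0.02 with TMM scaling). At an unadjusted p under 0.05, 3 had higher values (10.3%, against 12.9% of all genes). DESeq2 called 1 higher (3.45%, against 5.52%). Without replicate 1, *Bmp8a* was called (log2 fold change 0.71, adjusted p = 0.0413), which is 3.45% of the list against 4.83% of all genes. Its RQ in all 8 libraries was 0.0364 to 0.0509 at day 14 and 0.0583 to 0.0925 at day 21.

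Osteocyte genes had higher values at day 21 in 16 of 22 tested (median 0.23), with 0 calls by edgeR. At an unadjusted p under 0.05, 4 had higher values (18.2%, against 12.9% of all genes). DESeq2 called 2 higher (9.09%, against 5.52%). Without replicate 1, edgeR called 2 of 22 higher (9.09%, against 4.83%). *Sost*, the Wnt antagonist sclerostin, had an RQ of 0.0613, 0.0682, 0.0383 and 0.0326 at day 14 and 0.123, 0.136, 0.198 and 0.0440 at day 21. Replicate 4 at day 21 lay within the day 14 range, and the other day 21 values lay above it (log2 fold change 1.33 ± 0.42, adjusted p = 0.171, and 0.134 without replicate 1). *Mepe*, a matrix phosphoglycoprotein of osteocytes, had 0.188, 0.0249, 0.0134 and 0.0156 and then 0.459, 0.0461, 0.0638 and 0.0331. Replicate 1 was far above the others on both days, so the pooled test did not call it (1.34 ± 1.11, adjusted p = 0.632), while within replicates 2 to 4 it rose by 1.43 (adjusted p = 0.0336). *Dmp1* and *Phex*, genes of mineral and phosphate control, overlapped between the days (log2 fold changes 0.60 and 0.33). The transcription factors *Runx2* and *Sp7* that commit cells to the OB lineage had log2 fold changes of −0.08 ± 0.15 and −0.12 ± 0.12. Of 31 lineage factors tested *Tcf7* alone was called (3.23% lower, against 0.0651% of all genes; median −0.09).

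Genes of bone resorption were not called by edgeR in all 8 libraries. Of 24 osteoclast genes tested 0 were called by edgeR, and 9 had higher values at an unadjusted p under 0.05 (37.5%, against 12.9% of all genes). The RQs of 6 were higher without overlap (25.0%, against 9.39%), and DESeq2 called 5 (20.8%, against 5.52%). Without replicate 1, 4 were called higher (16.7%, against 4.83% of all genes). They were *Atp6v0d2*, a proton pump subunit needed for cell fusion (log2 fold change 1.47, adjusted p = 0.00523), *Tnfrsf11a*, the RANKL receptor (1.07), *Clcn7*, the lysosomal chloride channel (0.39), and the sodium exchanger *Slc9b2* (0.87). Other osteoclast markers were not called by edgeR with or without replicate 1. *Acp5*, tartrate-resistant acid phosphatase, ranged between 0.0341 and 0.0499 at day 14 and between 0.0331 and 0.0565 at day 21, *Ctsk*, cathepsin K, between 0.603 and 1.01 and between 0.683 and 0.943, and *Ocstamp*, a fusion protein, between 0.000438 and 0.00099 over both days. *Calcr*, the calcitonin receptor, had 0 counts in all 8 libraries, which allows an RQ of up to 0.000109 to 0.00034 (3 counts per library, counting error only). *Tnfsf11*, which encodes RANKL, had 0.00431, 0.00268, 0.00263 and 0.00216 and then 0.0185, 0.00289, 0.00373 and 0.00288, with a log2 fold change of 1.24 (adjusted p = 0.396) that became 0.35 without replicate 1.

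Cartilage genes were highest in replicate 1 on both days. The summed RQ of 20 chondrocyte genes was 33.8, 3.15, 4.88 and 5.77 at day 14 and 16.9, 4.56, 4.00 and 2.76 at day 21. *Col2a1*, the cartilage collagen, had 19, 0.957, 1.54 and 2.08 and then 6.80, 1.08, 0.945 and 0.982, and *Acan*, aggrecan, had 1.78, 0.328, 0.197 and 0.220 and then 0.584, 0.162, 0.148 and 0.0849. The list median was −1.20 with 0 calls by edgeR, 0 by DESeq2 and 0 at an unadjusted p under 0.05. Within replicates 2 to 4 the median was −0.81, *Hapln1*, the link protein, was called lower (−1.12, adjusted p = 0.0064) and *Comp*, a matrix protein of cartilage and tendon, higher (1.30, adjusted p = 0.0329).

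Adipocyte list genes had higher values at day 21, while the defining marker *Adipoq*, adiponectin, had 0 counts in 5 of the 8 libraries and at most 0.00257 in RQ. The summed RQ of the list was 0.882, 1.25, 1.41 and 1.37 at day 14 and then 2.17, 2.79, 2.6 and 4.49, without overlap (ratio of means 2.45). Without *Apoe* the sum ranged between 0.477 and 0.716 and then between 0.908 and 1.07. Of 20 genes 11 passed the filter on low counts, edgeR called 0, and 4 had higher values at an unadjusted p under 0.05 (36.4%, against 12.9% of all genes). *Apoe*, *Cd36*, *Cebpa* and *Acsl1* were higher without overlap (36.4%, against 9.39%) and called by DESeq2 (36.4%, against 5.52%). Macrophages also express *Apoe* and *Cd36*. Markers of endothelium and muscle were low or overlapped between the days. *Pecam1*, the endothelial marker, was at 0.000396 to 0.00125, and *Cdh5* did not pass the filter. *Acta2*, smooth muscle actin, ranged between 2.90 and 3.82 at day 14 and between 2.96 and 4.95 at day 21 (log2 fold change 0.12, adjusted p = 0.822). Of 11 skeletal muscle, 9 endothelial, 18 smooth muscle and 20 fibroblast genes tested, 0 were called by edgeR in all 8 libraries. The first and second of these lists also had 0 at an unadjusted p under 0.05 and 0 by DESeq2. At an unadjusted p under 0.05, 3 fibroblast genes were higher (15%, against 12.9%), as were 2 smooth muscle genes (11.1%), and 1 smooth muscle gene was lower (5.56%, against 2.87%). DESeq2 called 2 fibroblast genes higher (10%, against 5.52%) and 1 smooth muscle gene higher (5.56%) and 1 lower (5.56%, against 1.01%). Without replicate 1, edgeR called 3 of 11 adipocyte genes (27.3%, against 4.83% of all genes) and 2 of 21 fibroblast genes (9.52%) higher. It called 1 of 11 skeletal muscle genes lower (9.09%, against 1.21%).

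Stress genes, the subject of the study, were not called by edgeR between these days in all 8 libraries. Of 50 ISR genes tested, 0 passed in edgeR, and the median was −0.19. At an unadjusted p under 0.05, 6 had lower values (12%, against 2.87% of all genes), and DESeq2 called 2 lower (4%, against 1.01%). The summed RQ of the list overlapped between the days, at 9.66, 15, 12 and 11.5 and then 12.2, 11.1, 11.6 and 10.6. Replicate 1 was the lowest and replicate 2 the highest at day 14. Without replicate 1, 6 were called lower (12%, against 1.21% of all genes), among them the serine synthesis enzymes *Psat1* (log2 fold change −0.75) and *Phgdh* (−0.63), the mitochondrial folate enzyme *Mthfd2* (−0.46) and the hormone *Fgf21* (−1.17). The other 2 were the glutamine transporter gene *Slc1a5* (−0.29) and *Ddit4*, an inhibitor of mTORC1 (−0.43).

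The regulators *Atf4*, *Atf5* and *Ddit3* had log2 fold changes of 0.00 ± 0.14, 0.23 ± 0.13 and 0.05 ± 0.17. *Atf5* RQ was 0.397, 0.506, 0.444 and 0.426 at day 14 and 0.622, 0.504, 0.523 and 0.428 at day 21, with overlap. *Hspa9*, the mitochondrial chaperone mt-HSP70, had 0.560, 0.914, 0.774 and 0.707 and then 0.632, 0.636, 0.673 and 0.626 (−0.20 ± 0.14, adjusted p = 0.550). Its 4 day 21 values lay close together inside the wider day 14 range, and the day 14 values of replicates 2 to 4 lay above all of them. Of 23 mitochondrial chaperones and proteases, 0 were called by edgeR. At an unadjusted p under 0.05, 5 had lower values (21.7%, against 2.87% of all genes), and DESeq2 called 4 lower (17.4%, against 1.01%). *Hspd1*, *Hspe1* and the import pore gene *Tomm40* were called lower without replicate 1 (−0.43, −0.46 and −0.29), which is 13% of the list against 1.21%.

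Of 32 ER-UPR genes, 0 were called by edgeR, and the median was −0.10. At an unadjusted p under 0.05, 6 had lower values (18.8%, against 2.87% of all genes), and DESeq2 called 2 lower (6.25%, against 1.01%). *Hspa5*, the ER chaperone BIP, had an RQ of 1.73, 1.94, 1.78 and 1.73 at day 14 and 1.75, 1.37, 1.44 and 1.32 at day 21 (log2 fold change −0.29 ± 0.11, adjusted p = 0.266, and 0.0527 without replicate 1). Without replicate 1 the disulfide isomerases *Pdia4* (−0.40) and *Pdia6* (−0.42) and the secreted ER protein *Manf* (−0.44) were called lower (9.38% of the list, against 1.21%). Of 27 genes that the study followed in cultured OBs as markers, 0 were called by edgeR and the median was −0.15. At an unadjusted p under 0.05, 2 had lower values (7.41%, against 2.87%), and DESeq2 called 1 lower (3.7%, against 1.01%). *Avil*, advillin, had the largest fold difference among them, at 0.0682, 0.282, 0.170 and 0.154 and then 0.0641, 0.119, 0.129 and 0.113 (−0.66 ± 0.38, adjusted p = 0.451). The 13 mitochondrially encoded genes had a median of 0.18 that became −0.40 without replicate 1, with 0 calls by edgeR or DESeq2 and 0 at an unadjusted p under 0.05 in all 8 libraries.

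Proliferation and sterol genes had mostly lower values at day 21, without calls by edgeR in all 8 libraries. Of 39 cell cycle genes 0 were called by edgeR and 1 lower by DESeq2 (2.56%, against 1.01% of all genes), while 37 had lower values. At an unadjusted p under 0.05, 15 had lower values (38.5%, against 2.87%). Without overlap, 11 were lower (28.2%, against 2.09%), and the median was −0.24 (−0.16 without replicate 1). *Mki67*, the proliferation antigen Ki-67, had an RQ of 0.360, 0.375, 0.310 and 0.310 at day 14 and 0.221, 0.293, 0.334 and 0.291 at day 21 (−0.25 ± 0.13, adjusted p = 0.417). Of 25 cholesterol synthesis genes 0 were called by edgeR. At an unadjusted p under 0.05, 7 had lower values (28%, against 2.87%), and DESeq2 called 3 lower (12%, against 1.01%). The list median was −0.17, and without replicate 1, 3 members were called lower (12%, against 1.21%), among them *Sqle*, squalene epoxidase (log2 fold change −0.26, adjusted p = 0.0461).

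Signalling lists held few calls. In the Wnt list edgeR called 1 of 39 genes, *Tcf7* (2.56% lower, against 0.0651% of all genes). DESeq2 called *Tcf7* lower (2.56%, against 1.01%) and *Wnt5b* higher (2.56%, against 5.52%). *Axin2*, a target of Wnt signalling, had 0.0201, 0.00708, 0.0198 and 0.0185 and then 0.0101, 0.0154, 0.0121 and 0.0119 (−0.40 ± 0.30, adjusted p = 0.592), with replicate 2 at day 14 below every other value. Of 34 IGF, BMP and TGF-β genes 0 were called by edgeR. At an unadjusted p under 0.05, 6 had higher values (17.6%, against 12.9% of all genes), and DESeq2 called 1 higher (2.94%, against 5.52%). *Tgfb1* was higher at day 21, between 0.135 and 0.188 at first and then between 0.188 and 0.245 (0.38 ± 0.14, adjusted p = 0.217). Without replicate 1 *Igfbp3*, an IGF carrier, was called lower (−1.07, adjusted p = 0.00675), which is 2.94% of the list against 1.21% of all genes. Of 28 glycolysis and hypoxia genes 0 were called by edgeR. At an unadjusted p under 0.05, 1 had a higher value (3.57%, against 12.9%) and 2 had lower values (7.14%, against 2.87%). DESeq2 called 1 higher (3.57%, against 5.52%). The 8 osteoclast support genes had a median of 0.53, with 0 called by edgeR. At an unadjusted p under 0.05, 4 had higher values (50%, against 12.9%), and DESeq2 called 4 higher (50%, against 5.52%). Of 37 interferon-stimulated genes 0 were called by edgeR or DESeq2 and 0 had an unadjusted p under 0.05. *Isg15* was highest in replicate 4 at day 14, at 0.0683 against 0.00691 to 0.0236 in the other 3.

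The WT cultures of the same days were tested to see which of these changes the mutation altered. In WT 1708 genes rose (9.17% of 18633 tested) and 1041 fell (5.59%). All 69 genes called in Het had a WT log2 fold change of the same sign, against 74.6% of the 18152 genes tested in both genotypes, and 63 of them were also called in WT (91.3% of the Het calls and 2.29% of the WT calls). WT and Het libraries of one number may share a preparation. Without replicate 1, 969 genes were called in the same direction in both genotypes (86.4% of 1122 Het calls and 18.2% of 5336 WT calls) and 1 in opposite directions.

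The direct test of the difference between the Het and WT changes, over 16 libraries, called 0 of 19839 genes with edgeR, with 473 at an unadjusted p under 0.05 and 1 call by DESeq2. The larger number of genes called in WT is therefore not shown to be a difference between genotypes. The single DESeq2 call was *Gm28006*, a short entry inside the nuclear RNA *Neat1* (chr19:5844916-5845037). Its log2 rise from day 14 to day 21 was larger in Het than in WT, by 0.47 in DESeq2 (adjusted p = 0.0409) and 0.48 ± 0.10 in edgeR (adjusted p = 1). At day 14 its RQ was lower in Het (0.0619 to 0.0727) than in WT (0.0843 to 0.1). At day 21 the genotypes overlapped (0.109 to 0.116 and 0.104 to 0.122). *Neat1* itself, the scaffold of paraspeckles, had an RQ of 0.669, 0.810, 0.83 and 0.706 in Het at day 14 and 1.31, 1.1, 1.15 and 1.22 at day 21. In WT it ranged between 0.909 and 1.02 and then between 1.11 and 1.27, so that the genotypes overlapped at day 21 and not at day 14 (log2 fold change 0.67 ± 0.11 in Het and 0.29 ± 0.06 in WT, difference 0.37 ± 0.12, adjusted p = 1). *Gm27505* and *Gm27533*, also inside *Neat1*, had Het changes of 0.77 and 0.71 and WT changes of 0.31 and 0.29, and all 4 entries count reads of 1 locus.

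**Figure D5:**
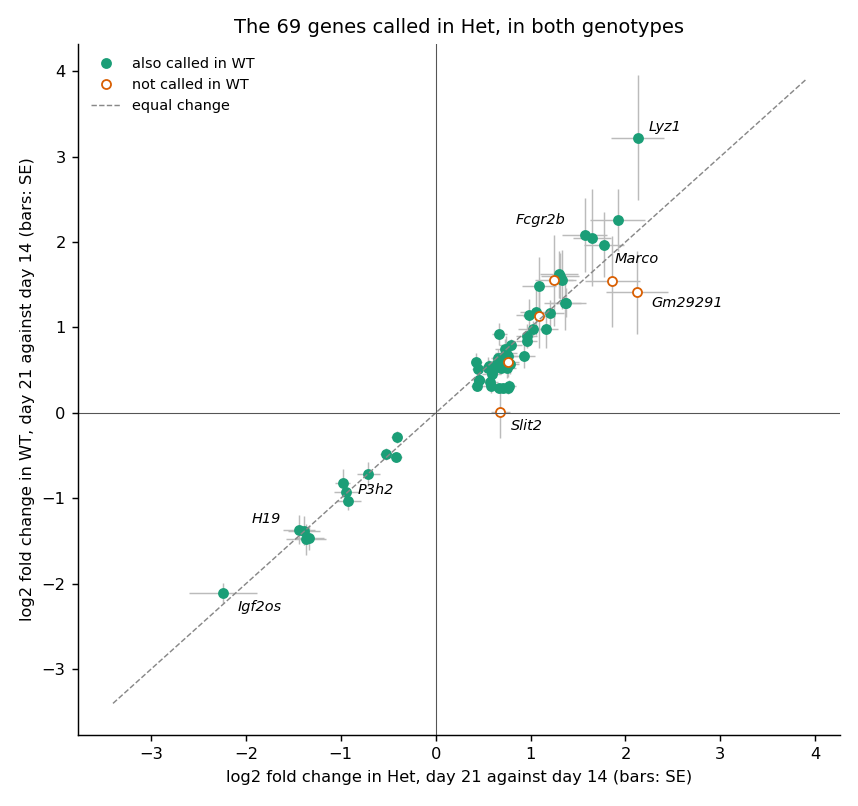
Log2 fold change from day 14 to day 21 in WT (y axis) against that in Het (x axis) for the 69 genes called in Het, with SE bars. Filled points were also called in WT (63 genes), open ones were not, and the dashed line marks equal change. All 69 points lie in the quadrants of equal sign, and *Slit2* lies nearest to no change in WT (0.68 in Het and 0.01 in WT).

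Changes of the leading genes are given for both genotypes. *H19* changed by −1.44 in Het and −1.37 in WT (difference −0.07 ± 0.24), *P3h2* by −0.98 and −0.82 (−0.17 ± 0.18), *Tcf7* by −0.71 and −0.71 (0.01 ± 0.19) and *Cbx7* by 1.20 and 1.17 (0.03 ± 0.21). *Lyz1* rose by 2.13 in Het and 3.22 in WT (difference −1.07 ± 0.80), and *Marco* by 1.77 and 1.97 (−0.20 ± 0.45). The macrophage list had a median of 0.98 in Het and 1.43 in WT, where 37 of 43 genes were called higher (86%, against 9.17% of all genes), and 0 of its members had an unadjusted p under 0.05 for the difference (lowest 0.101). The summed macrophage RQ of WT ranged between 2.47 and 7.72 at day 14 and between 10.8 and 12.9 at day 21. *Slit2*, a guidance ligand, rose in Het from 0.0270, 0.0279, 0.0313 and 0.0320 to 0.0518, 0.0425, 0.0447 and 0.0511, while WT overlapped between the days (0.0280 to 0.0627, then 0.0241 to 0.0522) (difference 0.67 ± 0.34, unadjusted p = 0.0663 and adjusted p = 1).

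Several lists without a call in Het had calls in WT, and 2 of them are given with the test of the difference. Cell cycle genes were called lower in 30 of 39 in WT (76.9%, against 5.59% of all genes), with a median of −0.49 against −0.24 in Het. For the difference, 6 of the 39 had an unadjusted p under 0.05 in edgeR (lowest 0.0130 for *Rrm2*). This is a larger share than the 473 of all 19839 genes, and edgeR called none of them. Interferon-stimulated genes were called higher in 8 of 37 in WT (21.6%, against 9.17%; median 0.60 against 0.02, or −0.04 in Het with TMM), and 0 had an unadjusted p under 0.05 for the difference (lowest 0.0857). *Isg15* changed by −0.61 ± 0.57 in Het and 0.50 in WT, a difference of −1.11 with an unadjusted p of 0.140.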

How the data were processed

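For each library the authors deposited 1 table of unnormalized read counts over 55335 genes. The submitters' processing notes name cutadapt 2.5, STAR 2.73a, Subread, featureCounts 1.6.4 and mm10, while strand and multimapping rules are not given in the sources used here. Libraries were polyadenylated RNA (TruSeq) without molecular identifiers, so counts include PCR duplicates. Coordinates came from GENCODE M21 (GRCm38), in which 54587 identifiers matched. Groups came from the labels, and all 8 Het libraries were used although the study analysed fewer wells. edgeR 4.0.16 (R 4.3.3; glmQLFit, glmQLFTest, filterByExpr) was fitted to the deposited counts with the housekeeping geometric mean as library scale and without a replicate block, separately for Het and WT, and over 16 libraries for the difference. SE was the absolute log2 fold change divided by the square root of F. The fits were also run on simulated counts with known changes. These had nearly constant housekeeping genes and no difference between preparations, so they could not test the scale or preparation effects.

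Members, gene lists and tests were chosen with earlier results of these data known. Named genes were the 12 largest rises and 12 largest falls among called genes averaging 50 or more counts whose RQs did not overlap, the defining genes and up to 4 further called genes of each of 26 lists, the study's markers and the housekeeping genes, with other members named after their values were seen. *Lect1*, *Vimp*, *Nespas* and *Ctgf* were not among the deposited symbols. Alternatives were TMM, DESeq2 1.42.0 size factors, total counts, leaving each housekeeping gene out of the scale, other filters, DESeq2's Wald test, the replicate number or replicate 1 as a covariate, all 24 libraries in 1 fit, and each replicate or library left out. Some genes are not reported here. Same-numbered WT libraries had positive correlations of deviations (0.56, 0.394, 0.247 and 0.491), but not every library was closest to its own number. Day 14 of replicate 2 had 0.46 with day 21 of replicate 3, so WT numbers were not taken as pairs either.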

Additional observations from a re-analysis of the deposited data

Results flagged for a closer look

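A library was looked at again where its gap to the nearest of the other 3 was too large a share of the range of its group of 4 (above the 95% critical value of Dixon's test). Of 210 groups with a range above 0 (106 named genes, 2 days), 29 met this, and chance alone gives about 1 in 20. Replicate 1 was the library in 21, replicate 2 in 6 and replicate 4 in 2.

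In replicate 1 at day 14 the RQ was high for *Gm27483* (0.765), *Mepe* (0.188), *Pparg* (0.0321), *Acan* (1.78), *Col2a1* (19), *Acta1* (0.00351) and *Sdha* (0.362) and low for *Fcgr2b* (0.0373), *Adgre1* (0.178) and *Lyz2* (1.79). In replicate 1 at day 21 it was high for *Ibsp* (25.9), *Spp1* (12.6), *Mepe* (0.459), *Tnfsf11* (0.0185), *Adipoq* (0.00257), *Acan* (0.584), *Col2a1* (6.80), *Acta2* (4.95), *Tagln* (2.55) and *Tgfb1* (0.245) and low for *Rcc2* (0.188). At day 14 the cartilage genes *Acan* and *Col2a1* were thus the highest, and the macrophage genes *Adgre1* and *Lyz2* the lowest, in the same library.

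In replicate 2 at day 14 the RQ was high for *Bglap* (0.424), *Bglap2* (0.561), *Dmp1* (0.145), *Nupr1* (1.36) and *Trap1* (0.154) and low for *Axin2* (0.00708). In replicate 4 at day 21 it was high for *Folr2* (0.128) and low for *Slc2a1* (0.108).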

How the results depend on the processing

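The number of genes called in Het was 69 (82.6% of them higher), and it became 25 (64% higher) with TMM, 22 with DESeq2's size factors, 10 with the total count, 20 without *Mrfap1* and 235 without *Sdha* in the scale, 1203 with DESeq2's Wald test, 477 with the replicate block, 1290 with replicate 1 as a covariate, 968 in 1 fit of all 24 libraries and 0 to 1122 when replicates or single libraries were left out. TMM moved the median of all genes from 0.08 to 0.00. Leaving out day 21 of replicate 1 gave 119 calls, day 14 of replicate 1 gave 78, day 14 of replicate 2 gave 3 and each other single library of replicates 2 to 4 gave 0.
In WT the count was 2749, with 5325 under replicate 1 as a covariate, 1726 in the fit of 24 libraries, 3998 with the replicate block and 0 to 5336 with replicates or libraries left out (0 without replicate 4). The difference between genotypes had 0 calls, also with the replicate block, and 1 with DESeq2's Wald test, and every other alternative gave 0.

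The 24 called named genes kept their direction in all 600 values over 25 alternatives and their call in 307. Of 1923 values of 77 named genes that were not called, 33 gained a call in the same direction, 0 in the other, and 119 changed sign without a call in either. Of 208 list medians, 22 moved beyond the spread between replicates and 25 changed sign. Of the 69 calls, 68 held with the replicate block. Het replicate numbers were not taken as pairs, because the correlation of deviations between same-numbered libraries was 0.601, −0.135, 0.391 and 0.331, and not every library was closest to its own number. Days 14 and 21 of replicate 1 did match (0.601, against −0.571 to −0.186 with other numbers). The main fit had no term for replicate 1, so its difference stayed in the error, and 1290 genes were called with that term.

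Depth limits genes near 0 counts, and replicate 1 had the fewest counts on both days. Effects of preparation, plating density and oxygen cannot be told apart.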
